A study of Mus musculus with 380 samples.

Results

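The cells described here are CD8 T cells from B16F10 tumours, a transplantable mouse melanoma, that fell on either side of an exhaustion split made from 3 transcripts. In the first set Pdcd1, the gene of the checkpoint receptor PD-1, and Havcr2, the gene of TIM-3, were both above 1 FPKM (reads for a gene relative to its length and to the size of the library) and Tcf7, which encodes the transcription factor TCF-1, was at or below 1. In the second set Tcf7 was above 1 and Havcr2 at or below 1. The sets are called Pdcd1+Havcr2+ and Tcf7+ cells. They held 54 and 58 cells. A cell needed at least 1000 genes above 1 FPKM, which kept 80 and 72 of the 94 CD8 single cells of each of 2 plates and left 40 cells in neither set. The whole series has 380 libraries on 4 plates. The plate labelled Il27ra knockout (KO-labelled) gave 10 Pdcd1+Havcr2+ cells and 47 Tcf7+ cells, and the wild-type (WT) plate gave 44 and 11 in the same order.

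All mice were C57BL/6 and bore B16F10 tumours. The knockout lacks by its label Il27ra, a chain of the interleukin-27 receptor, and the WT mice carry no named alteration. Each genotype has 1 code in the titles and each combination of genotype and lineage is 1 Smart-seq2 plate of 94 single cells and 1 population well, so each plate is 1 sample. Genotype and plate cannot be told apart. Il27ra was still above 1 FPKM in 6 of 10 Pdcd1+Havcr2+ cells and 30 of 47 Tcf7+ cells of the KO-labelled plate, and in 37 of 44 and 6 of 11 cells of the WT plate. FPKM per gene leaves unknown which exons the reads covered.

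During long exposure to antigen, as in tumours, CD8 T cells pass into a state called exhaustion, in which they keep several inhibitory receptors on their surface and lose part of their function. PD-1 and TIM-3 together mark the late, or terminal, form in mice. TCF-1 is needed for naive and memory T cells and for a PD-1-bearing precursor that can still divide and renew the exhausted pool, so a Tcf7 transcript alone does not separate these.

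The split was close to exclusive in these cells. No kept CD8 cell had all 3 transcripts, and 1 cell, on the KO-labelled plate and without Pdcd1, had both Tcf7 and Havcr2. Pdcd1+Havcr2+ cells made up 12.5% of the 80 kept KO-labelled cells (exact 95% interval 6.16 to 21.8) and 61.1% of the 72 kept WT cells (48.9 to 72.4). Tcf7+ cells made up 58.75% of the KO-labelled cells (47.2 to 69.6) and 15.3% of the WT cells (7.88 to 25.7). The intervals cover counting of cells only. Few cells lay near the threshold: on the KO-labelled plate the lowest value above 1 FPKM and the highest at or below it were 1.09 and 0 for Pdcd1, 18.5 and 0.5 for Havcr2, and 3.11 and 0.66 for Tcf7. On the WT plate they were 28 and 0 for Pdcd1, 2.05 and 0.97 for Havcr2, and 21.3 and 0.74 for Tcf7. These 3 genes chose the cells and are left out of every comparison.

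Both sets had the CD8 lineage genes. Cd8a was detected, here meaning above 1 FPKM, in 10 of 10 and 42 of 47 cells of the KO-labelled plate and in 43 of 44 and 9 of 11 cells of the WT plate (Pdcd1+Havcr2+ cells, then Tcf7+ cells). Cd4 was detected in 1 cell, a WT Pdcd1+Havcr2+ cell. Of the genes of other cell types, Foxp3 of regulatory T cells was at or below 1 FPKM in all 4 sets, as were all 4 gamma-delta T cell genes in the file. At least 3 of 7 genes of CD4 and regulatory T cells, with Ctla4 and Tnfrsf4 among them, were detected in some cells. These were 3 of 10 and 4 of 47 KO-labelled and 7 of 44 and 0 of 11 WT cells, in the same order of sets. At least 3 of 9 NK cell genes were detected in 0 of 10, 5 of 47, 1 of 44 and 1 of 11 cells. For 12 dendritic genes this held in 0 of 10, 1 of 47, 5 of 44 and 1 of 11 cells. For 11 macrophage genes it held in 1 of 10, 0 of 47, 2 of 44 and 0 of 11. At least 3 of 10 melanoma genes were detected in 1 of 10 Pdcd1+Havcr2+ and 0 of 47 Tcf7+ cells of the KO-labelled plate, and in 5 of 44 and 1 of 11 cells of the WT plate. Their summed level reached 1086 and 87.04 FPKM in the KO-labelled cells and 2184 and 455 FPKM in the WT cells. Cells with at least 3 genes of the melanoma, dendritic or macrophage list were then taken out. The 15 highest and 15 lowest genes named below stayed past the same limit. Cells with NK genes or with CD4 and regulatory T cell genes were kept in this comparison.

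The sets were unlike in genes detected per cell, and every difference below stands beside this. On the KO-labelled plate Pdcd1+Havcr2+ cells had a median of 3679 genes (range 1890 to 5296) and Tcf7+ cells 2492 (1599 to 4516). On the WT plate the medians were 4202 (1294 to 7014) and 2434 (2127 to 4379). A cell was called cycling when at least 2 of 6 proliferation genes were detected. That held for 4 of 10 Pdcd1+Havcr2+ cells (40%) and 8 of 47 Tcf7+ cells (17.02%) of the KO-labelled plate, and for 31 of 44 (70.5%) and 3 of 11 (27.3%) of the WT plate. Differences were therefore also taken in cells matched one to one on genes detected, 9 against 9 on each plate. On the KO-labelled plate the Tcf7+ cells with Pdcd1 had a median of 3223 genes and those without it 2443.5. Matching there thus also raised the share of cells with Pdcd1 among the Tcf7+ cells, so depth and this share moved together. What part each has in a change between all and matched cells was not tested. What part depth and cell cycle have in the differences over all cells was not tested beyond the matching and the alternatives given at the end.

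**Figure D1:**
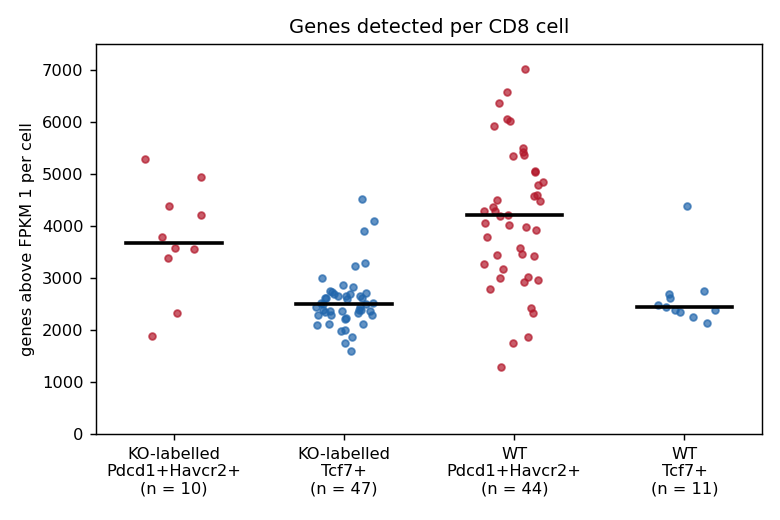
Number of genes above 1 FPKM (vertical axis) in each CD8 cell of the 2 sets, by plate; each point is a cell and the black line is the median. Medians are 3679 and 2492 on the KO-labelled plate and 4202 and 2434 on the WT plate, so Pdcd1+Havcr2+ cells stand higher on both.

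For each gene the mean of log2(FPKM + 1) over Tcf7+ cells was subtracted from that over Pdcd1+Havcr2+ cells within each plate. A gene was called when both plates differed by 1 or more in the same direction. With 2 plates that also differ in genotype there is no test, and a sign permutation over 2 plates cannot go below p = 0.5. Of 5693 genes detected in at least 25% of cells of either set on each plate, 2181 (38.3%) were called higher in Pdcd1+Havcr2+ cells and 89 (1.56%) lower. A further 1.81% were past 1 in opposite directions on the 2 plates. The median gene was itself higher by 1.08 on the KO-labelled plate and 1.20 on the WT plate. In the matched cells the medians were 0.25 and 0.18, and 518 of 4290 genes (12.1%) were called higher and 5.85% lower. The matched sets were still unequal in genes detected, in the same direction as all cells. Matched Pdcd1+Havcr2+ and Tcf7+ cells had medians of 3580 and 3223 genes on the KO-labelled plate and 2926 and 2489 on the WT plate. A gene past the detection limit only through its high set had to differ, so the counts describe these cells and are no evidence on their own.

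The 15 genes with the largest difference in the plate where they differed less were Lag3, Gzmb, Rgs16, Ccl4, Ccl3, Tnfrsf9, Samsn1, Bhlhe40, Prf1, Litaf, Tigit, Bcl2a1b, Plek, Lgals1 and Cks1b on the higher side. On the lower side 14 of the 15 were Il7r, Gramd3, Emb, Tnfrsf26, S1pr1, Klhl6, Tgtp2, Pydc3, Itgb7, Lef1, Ssh2, Fos, Ly6c2 and Bcl2. In the matched cells 14 of the 15 higher genes and 14 of the 15 lower genes were still past 1 on both plates. The exceptions were Cks1b, a cell cycle kinase subunit, at 1.79 on the KO-labelled plate and 0.94 on the WT plate, and Ssh2, a cofilin phosphatase, at -0.84 and -3.56.

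**Figure D2:**
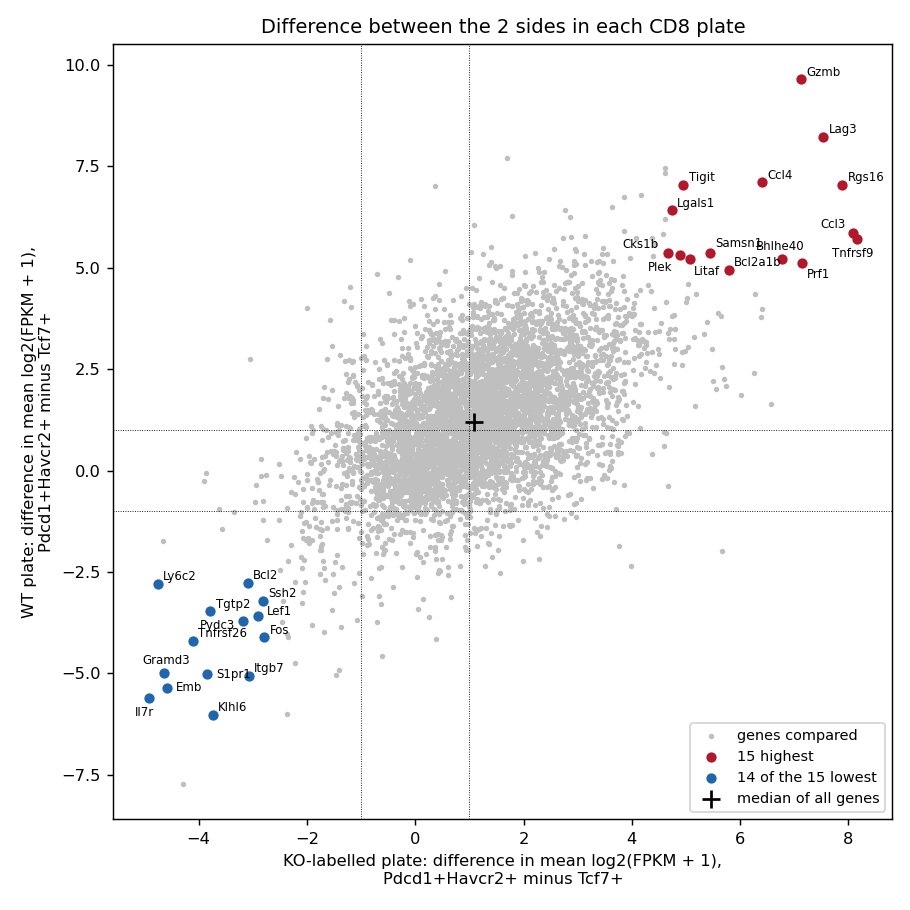
Difference in mean log2(FPKM + 1), Pdcd1+Havcr2+ minus Tcf7+ cells, on the KO-labelled plate (horizontal axis) and the WT plate (vertical axis) for 5693 genes (grey), with the 15 highest genes in red and 14 of the 15 lowest in blue, chosen by these same values. Dotted lines mark a difference of 1 either way and the cross marks the median gene, at 1.08 and 1.20, so the whole cloud lies toward higher values.

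Inhibitory receptors other than the selecting pair were higher in Pdcd1+Havcr2+ cells. Lag3, an inhibitory receptor that binds MHC class II (chromosome 6, 124904361 to 124911705, minus strand, GRCm38), had a lowest, median and highest level of 0, 960.3 and 2400.3 FPKM in Pdcd1+Havcr2+ cells and 0, 0 and 2049 FPKM in Tcf7+ cells of the KO-labelled plate. WT cells had a Lag3 level of 0, 728 and 5115 FPKM in Pdcd1+Havcr2+ cells and 0, 0 and 695 FPKM in Tcf7+ cells. The ranges overlapped on both plates through 8 of 47 and 1 of 11 Tcf7+ cells with the transcript, while 9 of 10 and 43 of 44 Pdcd1+Havcr2+ cells had it. The log2 difference of Lag3 was 7.53 on the KO-labelled plate and 8.22 on the WT plate, and 4.64 and 8.23 in matched cells.

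Tigit, a receptor for CD155, was above 1 FPKM in most cells of both sets but far more abundant in the first. It was detected in 9 of 10 Pdcd1+Havcr2+ and 30 of 47 Tcf7+ cells of the KO-labelled plate and in 43 of 44 and 6 of 11 cells of the WT plate. Its median was 581 against 2.09 FPKM on the KO-labelled plate and 1670 against 2.53 FPKM on the WT plate, in the same order of sets. The Tcf7+ medians lie close to the limit of 1 FPKM. Tigit was also above that limit in all 13 WT cells with none of the 3 selecting genes, at a mean log2(FPKM + 1) of 3.40. Entpd1, which encodes the ectonucleotidase CD39, was close to limited to the first set: it was detected in 7 of 10 against 3 of 47 cells and in 37 of 44 against 0 of 11 cells, and 0 of 11 allows a share of up to 27.3%. Ctla4, a receptor that competes for the CD80 and CD86 ligands, was detected in 9 of 10 against 17 of 47 and in 38 of 44 against 2 of 11 cells.

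Of the 14 inhibitory receptors and related surface molecules listed beside the selecting pair, 10 passed the detection limit, 8 were called higher and none lower, where 38.3% and 1.56% of all genes were. The median difference of the 10 was 4.13 and 3.41, and 2.34 and 2.91 in matched cells. The 2 not called, named after their values were seen, were Cd160, at 2.28 and 0.86, and Cd274, at 0.60 and -2.58 on the KO-labelled and WT plates. In single cells, at least 3 of Lag3, Tigit, Ctla4, Entpd1 and the costimulatory Tnfrsf9 were detected in 10 of 10 Pdcd1+Havcr2+ and 7 of 47 Tcf7+ cells of the KO-labelled plate, and in 43 of 44 and 1 of 11 cells of the WT plate. All 5 were detected in 6 of 10 and 26 of 44 Pdcd1+Havcr2+ cells and in 0 of 47 and 0 of 11 Tcf7+ cells. These 5 genes were chosen with their levels known, and whether they occur together more often than their single shares give was not tested. Depth moved the same way in each of these pairs.

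**Figure D3:**
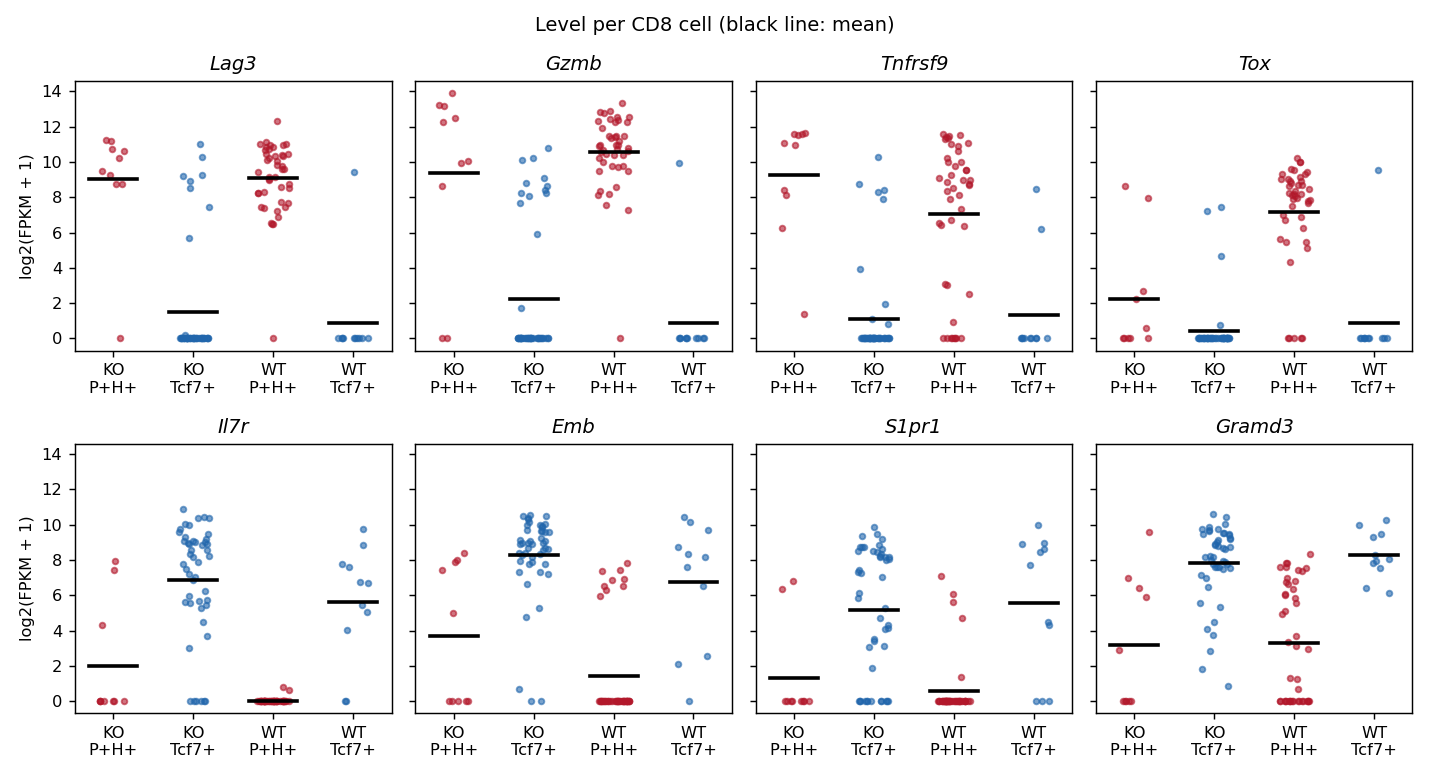
Level of 8 genes, log2(FPKM + 1), in each CD8 cell (points) with the mean as a black line; P+H+ stands for Pdcd1+Havcr2+ and KO for the KO-labelled plate. The top row holds Lag3, Gzmb, Tnfrsf9 and Tox and the bottom row Il7r, Emb, S1pr1 and Gramd3; Tox is above 1 FPKM in 4 of 10 Pdcd1+Havcr2+ cells of the KO-labelled plate and 39 of 44 of the WT plate, the most unequal of the top row.

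Costimulatory receptors did not share 1 direction. Tnfrsf9, which encodes 4-1BB and appears on recently activated T cells, had a lowest, median and highest level of 1.61, 2067 and 3207 FPKM in Pdcd1+Havcr2+ cells and 0, 0 and 1248 FPKM in Tcf7+ cells of the KO-labelled plate. WT cells had a Tnfrsf9 level of 0, 418 and 3076 FPKM and 0, 0 and 359.5 FPKM in the same order. All 10 KO-labelled Pdcd1+Havcr2+ cells had it, against 8 of 47 Tcf7+ cells, and 35 of 44 WT Pdcd1+Havcr2+ cells, against 2 of 11. Tnfrsf4, or OX40, differed by 3.53 and 3.35, Slamf1, a homophilic adhesion receptor, by 2.60 and 2.64, and Tnfrsf1b, a receptor of tumour necrosis factor, by 2.96 and 2.39. In matched cells Tnfrsf1b was not called, at 1.37 and 0.75. Of 17 such receptors 16 passed the detection limit, and 5 were called higher, a share near the 38.3% of all genes, and 1 lower. In matched cells 3 were called higher and 1 lower, where 12.1% and 5.85% of all genes were. The median was 1.26 and 1.89, against 1.08 and 1.20 over all genes.

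The transcription factors linked to exhaustion were mostly higher, with the plates unlike in Tox. Tox, a factor required for exhausted T cells to persist, had a lowest, median and highest level of 0, 0.24 and 398 FPKM in Pdcd1+Havcr2+ cells and 0, 0 and 176.3 FPKM in Tcf7+ cells of the KO-labelled plate. For WT cells Tox was at 0, 281.3 and 1183 FPKM in Pdcd1+Havcr2+ cells and 0, 0 and 737 FPKM in Tcf7+ cells. Tox was above 1 FPKM in 4 of 10 Pdcd1+Havcr2+ and 3 of 47 Tcf7+ cells of the KO-labelled plate, and in 39 of 44 and 1 of 11 cells of the WT plate. The difference was 1.78 on the KO-labelled plate and 6.28 on the WT plate, and 0.68 and 5.29 in matched cells, where the KO-labelled value was no longer past 1. The usual marker Tox thus went with the name terminally exhausted in most cells of the WT plate and in a minority of those of the KO-labelled plate, and the sets are called here by their selecting genes.

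Bhlhe40, a repressor induced by T cell receptor signals, differed by 6.77 and 5.21 and was detected in all 10 KO-labelled Pdcd1+Havcr2+ cells, with a lowest level of 359.5 FPKM, against 15 of 47 Tcf7+ cells. In WT cells Bhlhe40 was detected in 36 of 44 against 2 of 11. Id2, an inhibitor of E proteins that favours effector cells, differed by 4.61 and 7.34 and was detected in 10 of 10 against 28 of 47 and in 40 of 44 against 2 of 11 cells. Irf8, an interferon regulatory factor, differed by 6.38 and 3.77, and Nr4a2, an orphan nuclear receptor of activated T cells, by 3.64 and 3.37, and by 2.37 and 0.74 in matched cells, where it was not called. Of 18 regulators listed, 16 passed the detection limit, 10 were called higher and none lower, where 38.3% and 1.56% of all genes were. In matched cells 8 were called higher, where 12.1% of all genes were. The median was 2.43 and 3.33 over all cells, and 2.10 and 2.05 in matched cells.

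Gzmb, Prf1, Ccl3 and Ccl4 put killing and chemokine genes among the 15 highest. Gzmb, the serine protease granzyme B, had a lowest, median and highest level of 0, 2999 and 15193 FPKM in Pdcd1+Havcr2+ cells and 0, 0 and 1780.5 FPKM in Tcf7+ cells of the KO-labelled plate. The WT values of Gzmb were 0, 1857 and 10425 FPKM and 0, 0 and 977 FPKM in the same order of sets. It was detected in 8 of 10 against 13 of 47 and in 43 of 44 against 1 of 11 cells, so most, but not all, cells of the 2 sets were apart. Prf1, the pore-forming perforin, differed by 7.14 and 5.11, and Fasl, the ligand of the death receptor Fas, by 2.73 and 4.07. Serpinb9, an inhibitor of granzyme B, differed by 5.70 and 2.25, and by 3.03 and -1.08 in matched cells.

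Of 20 cytotoxic genes 12 passed the detection limit, 9 were called higher and 1 lower, where 38.3% and 1.56% of all genes were. In matched cells 5 were called higher and 1 lower, where 12.1% and 5.85% of all genes were. The one lower was Ctsw, the protease cathepsin W of killer cells, at -2.74 and -1.71, named after its value was seen. The list had a median of 1.94 and 2.32, and of 1.13 and 1.55 in matched cells. Ccl3 and Ccl4, chemokines that draw immune cells to inflamed tissue, differed by 8.08 and 5.85 and by 6.40 and 7.10. Ccl3 was detected in 7 of 10 against 2 of 47 cells on the KO-labelled plate and in 28 of 44 against 0 of 11 on the WT plate, where every Tcf7+ cell was listed at 0. Ifng, interferon gamma, differed by 6.25 and 2.40 and was detected in 8 of 10 against 8 of 47 and in 21 of 44 against 2 of 11 cells. Tnfsf8, the CD30 ligand, was lower, at -1.73 and -1.82, and not called in matched cells, at -0.97 and -1.58.

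Rgs16, which speeds the shut-off of G protein signals and so dampens chemokine receptors (chromosome 1, 153740349 to 153745468, plus strand, GRCm38), was close to absent from Tcf7+ cells. Its lowest, median and highest level was 0, 523 and 2862 FPKM in Pdcd1+Havcr2+ cells and 0, 0 and 868 FPKM in Tcf7+ cells of the KO-labelled plate, and 0, 643 and 4635 FPKM and 0, 0 and 116.3 FPKM on the WT plate. It was detected in 9 of 10 against 2 of 47 and in 36 of 44 against 1 of 11 cells. Samsn1, an adaptor of lymphocytes, differed by 5.43 and 5.36, Plek, a substrate of protein kinase C, by 4.90 and 5.31, and Litaf, an endosomal protein, by 5.07 and 5.21. Lgals1, the secreted lectin galectin-1, differed by 4.73 and 6.41. The S100, galectin and annexin list, which holds Lgals1, had 15 of 16 members past the detection limit, 13 called higher and none lower, where 38.3% and 1.56% of all genes were, with a median of 3.80 and 3.27. In matched cells 7 were called higher, where 12.1% of all genes were, with a median of 1.88 and 2.22.

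Genes of naive and memory T cells formed the opposite side. Il7r, the interleukin-7 receptor chain that long-lived T cells need (chromosome 15, 9505788 to 9530176, minus strand, GRCm38), had a lowest, median and highest level of 0, 0 and 246.3 FPKM in Pdcd1+Havcr2+ cells and 0, 287.3 and 1906 FPKM in Tcf7+ cells of the KO-labelled plate. In WT cells Il7r was at 0, 0 and 0.75 FPKM in Pdcd1+Havcr2+ cells and 0, 103.8 and 867 FPKM in Tcf7+ cells. It was above 1 FPKM in 3 of 10 against 41 of 47 cells on the KO-labelled plate and in 0 of 44 against 9 of 11 on the WT plate, where 0 of 44 allows a share of up to 6.82%. The difference of Il7r was -4.92 and -5.60, and -3.97 and -5.32 in matched cells, while the median gene was higher.

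S1pr1, the receptor that lets T cells leave tissue toward blood, was detected in 2 of 10 against 35 of 47 and in 5 of 44 against 8 of 11 cells, with a difference of -3.85 and -5.02. Lef1, a partner of TCF-1, was detected in 1 of 10 against 26 of 47 and in 18 of 44 against 9 of 11 cells, with a difference of -2.90 and -3.59.

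Gramd3, whose product has a GRAM domain, was found in more Tcf7+ cells than any other of the 15 lowest genes. It was detected in 46 of 47 and 11 of 11 Tcf7+ cells, but also in 5 of 10 and 25 of 44 Pdcd1+Havcr2+ cells at a lower median, 3.25 against 295.95 FPKM on the KO-labelled plate and 7.22 against 264.9 FPKM on the WT plate. Emb, the adhesion protein embigin (chromosome 13, 117208536 to 117274415, plus strand, GRCm38), was detected in 5 of 10 against 44 of 47 and in 9 of 44 against 10 of 11 cells. Klhl6, a ubiquitin ligase adaptor of lymphocytes, differed by -3.74 and -6.01, and Itgb7, the integrin beta 7 chain, by -3.07 and -5.06. Bcl2, which protects from cell death, differed by -3.10 and -2.76, while Bcl2a1b, a relative with the same role, differed by 5.79 and 4.94. Bcl2a1b and Bcl2a1d are near-identical copies, so how their reads were shared between them is uncertain.

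Of 26 naive and memory genes 19 passed the detection limit, 13 were called lower and 1 higher, where 1.56% and 38.3% of all genes were. The median was -2.09 and -2.76, and -1.68 and -3.66 in matched cells. In those cells 15 were called lower and none higher, where 5.85% and 12.1% of all genes were. Among cytokine receptors Il4ra, the interleukin-4 receptor chain, went with Il7r at -2.44 and -3.21, and at -1.05 and -2.76 in matched cells. Jak3, the kinase of the common gamma chain, was at 2.97 and 2.91 and Cish, an inhibitor of cytokine signals, at 4.17 and 2.39, and neither was called in matched cells, at 2.52 and 0.93 and at 4.41 and 0.30. Of 23 genes of that list 6 were called higher and 5 lower, where 38.3% and 1.56% of all genes were. In matched cells none was called higher and 6 lower, where 12.1% and 5.85% of all genes were. The list median was -0.25 and -1.02 in those cells.

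The chemokine receptor list was also divided. Cxcr6, which holds T cells near CXCL16, was detected in 9 of 10 against 24 of 47 and in 42 of 44 against 3 of 11 cells, with a difference of 4.62 and 7.46. Of the 14 members compared 6 were called higher, a share near the 38.3% of all genes, and 4, with S1pr1 and Itgb7 among them, lower, against 1.56% of all genes. In matched cells 4 were called higher and 4 lower, where 12.1% and 5.85% of all genes were. T cell receptor signalling genes had 9 of 22 called higher, also near the 38.3% of all genes, and none lower. In matched cells 4 and 1 were, read against the same matched shares. The median of this list was 1.54 and 1.08, against 1.08 and 1.20 over all genes. Sh2d1a, the adaptor SAP, stood highest there by the smaller of the 2 plate differences, at 3.58 and 4.05. In matched cells it was at 3.29 and 3.48. Of 10 killer lectin receptors 6 passed, with Klrc1, which encodes the inhibitory NKG2A, at 4.51 and 3.44 and Klra7, an inhibitory Ly49 receptor whose family members are similar in sequence, at -2.09 and -3.26.

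Cell cycle and metabolic genes were higher over all cells and differed less in matched cells. Of 34 cell cycle genes 26 passed the detection limit and 25 were called higher, against 38.3% of all genes, with a median of 2.49 and 4.19. In matched cells 7 were called higher, against 12.1% of all genes, with a median of 0.87 and 1.49. Without the cells called cycling, which are called from genes of this list, the medians were 0.00 and 0.38. Mcm3, part of the replicative helicase, differed by 3.63 and 6.49, and Hmgb2, a chromatin protein of dividing cells, by 2.96 and 5.08 (2.57 and 4.98 in matched cells). Glycolysis genes had 14 of 18 called higher and 5 in matched cells, read against the same shares, with a median of 2.17 and 2.92, and of 1.15 and 1.66 in matched cells. Pkm, pyruvate kinase, differed by 4.15 and 3.61 and Pfkl, a phosphofructokinase, by 3.37 and 3.46.

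Genes of oxidative phosphorylation had 23 of 27 called higher, against 38.3% of all genes, with a median of 2.36 and 2.87. In matched cells 5 were called higher, against 12.1% of all genes, with a median of 0.92 and 0.58. Cox7b, a subunit of cytochrome c oxidase, stood at 3.62 and 4.72, and at 1.70 and 3.25 in matched cells. Ribosomal protein genes had none of 29 called higher and 1 lower, where 38.3% and 1.56% of all genes were. In matched cells 0 and 4 were, where 12.1% and 5.85% of all genes were. The list had a median of -0.23 and -0.43 (-0.65 and -0.79 in matched cells). Rps27 was the member called lower over all cells, at -2.50 and -2.46. Survival and death genes had 10 of 15 called higher and 1 lower, where 38.3% and 1.56% of all genes were. In matched cells 4 and 2 were, where 12.1% and 5.85% of all genes were. The list had a median of 2.73 and 1.26 over all cells, with the WT value near that of all genes. In matched cells it was 1.28 and 0.21. Pmaip1, the pro-death protein NOXA, differed by 4.03 and 4.12.

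Stress and interferon genes were called in both directions. The list medians were 0.42 and 0.36 for stress genes and -0.63 and 0.84 for interferon genes, below the 1.08 and 1.20 of all genes. Fos, an early response factor, differed by -2.79 and -4.11, while the chaperones Hsp90aa1 and Hsph1 differed by 3.47 and 5.49 and by 2.68 and 2.96. Of 23 immediate-early and stress genes 4 were called higher and 3 lower, where 38.3% and 1.56% of all genes were. In matched cells 2 and 3 were, where 12.1% and 5.85% of all genes were. Of 16 interferon-stimulated genes 1 was called higher and 3 lower, and 1 and 1 in matched cells, read against the same shares. Rtp4, Usp18 and Irf7, which interferon induces, were the 3 lower, at -1.74 and -1.96, at -1.98 and -1.67, and at -1.76 and -1.45. In matched cells Rtp4 was still called, at -1.85 and -1.52, but not Usp18, at -1.70 and -0.41, or Irf7, at -1.46 and 0.25. The call of Usp18 was lost in 1 and that of Irf7 in 3 of 21 runs that each left out 1 cell of the smaller set of a plate.

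**Figure D4:**
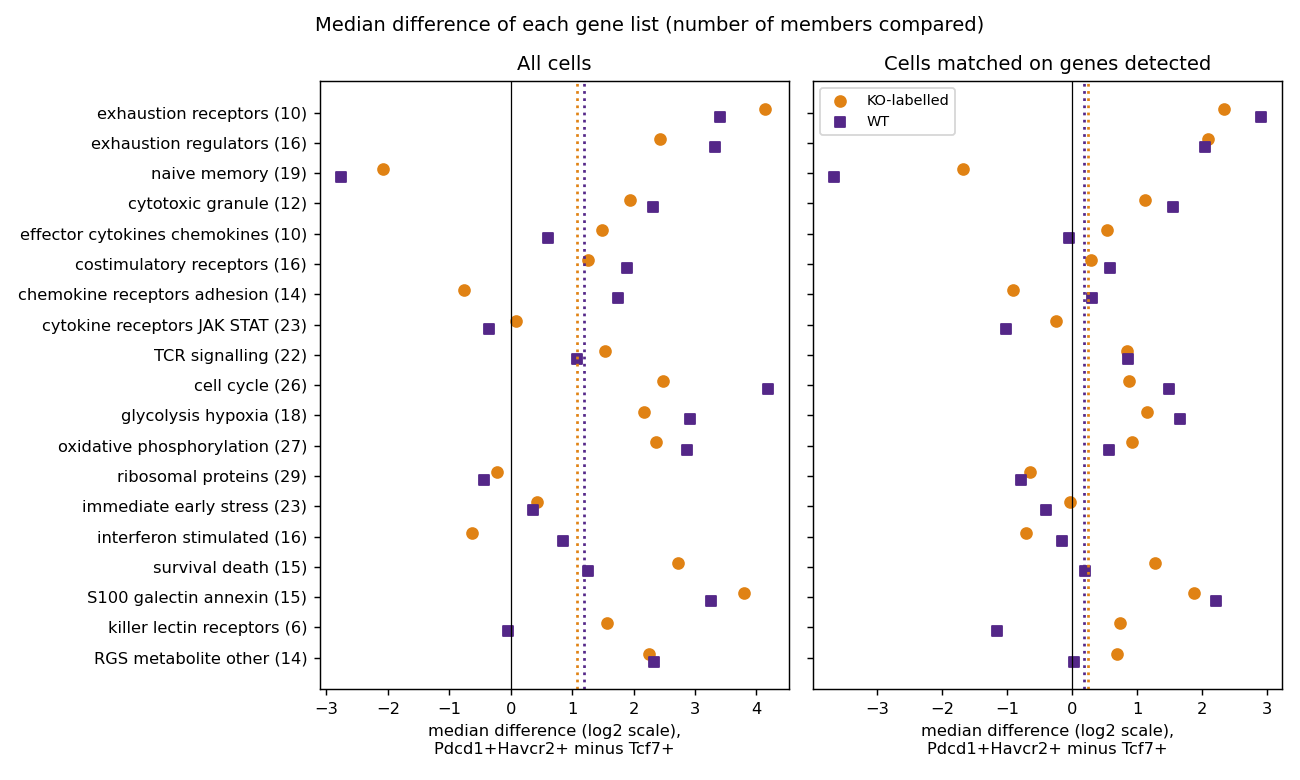
Median difference (log2 scale), Pdcd1+Havcr2+ minus Tcf7+ cells, for 19 gene lists with the number of members compared, in all cells (left) and in cells matched on genes detected (right), for the KO-labelled plate (circles) and the WT plate (squares); dotted lines are the medians of all genes. In all cells 12 lists lay past 1 in the same direction on both plates and in matched cells 6 did: the receptors, regulators, naive and memory, cytotoxic, glycolysis and S100 lists. In all cells the dotted lines are past 1 as well, at 1.08 and 1.20. A list near them, such as T cell receptor signalling at 1.54 and 1.08, is thus among the 12.

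The Tcf7+ set was itself mixed, since Pdcd1 was not used to choose it. Pdcd1 was found in 9 of the 47 Tcf7+ cells of the KO-labelled plate and 3 of the 11 of the WT plate, and the genes followed in these classes were chosen after values had been seen. On the KO-labelled plate Ctla4 was detected in all 9 Tcf7+ cells with Pdcd1, at a mean log2(FPKM + 1) of 9.37 ± 0.71 (SD over cells), and in 8 of 38 without it, at 1.73 ± 3.47. Pdcd1+Havcr2+ cells of that plate had a Ctla4 level of 7.82 ± 2.93. The order was the other way on the WT plate, where Ctla4 was at 7.36 ± 3.10 in Pdcd1+Havcr2+ cells and at 4.25 ± 4.11 in the 3 Tcf7+ cells with Pdcd1, of which 2 had it. Lag3 was detected in 6 of 9 Tcf7+ cells with Pdcd1 and in 2 of 38 without it on the KO-labelled plate, and in 1 of 3 and 0 of 8 on the WT plate. Il7r was detected in 8 of 9 and 33 of 38, and in 2 of 3 and 7 of 8.

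Other genes of the first set were found in some Tcf7+ cells with Pdcd1 or in none. Entpd1 was in 0 of 9 on the KO-labelled plate and 0 of 3 on the WT plate. Gzmb was in 4 of 9 Tcf7+ cells with Pdcd1 and 9 of 38 without it on the KO-labelled plate, and in 0 of 3 and 1 of 8 on the WT plate. Rgs16 was in 2 of 9 and 0 of 38, and in 1 of 3 and 0 of 8, in the same order. Emb, a gene of the Tcf7+ side, was detected in all 9 and all 3. With Tcf7+ cells limited to those with Pdcd1, all 15 highest genes and 12 of the 15 lowest were still past 1 on both plates, from only 9 and 3 Tcf7+ cells. Against these cells Ctla4 at -1.56, S100a4 at -0.43 and Zap70 at -0.16 had the other sign on the KO-labelled plate. On the WT plate the sign turned for Jak3 at -1.34, Tnfrsf1b at -1.08, Glrx at -0.97 and Fyn at -0.21. It also turned there for Bcl2a1d at -0.14, Klrc1 at -0.02, Usp18 at 0.54 and Fos at 0.17.

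**Figure D5:**
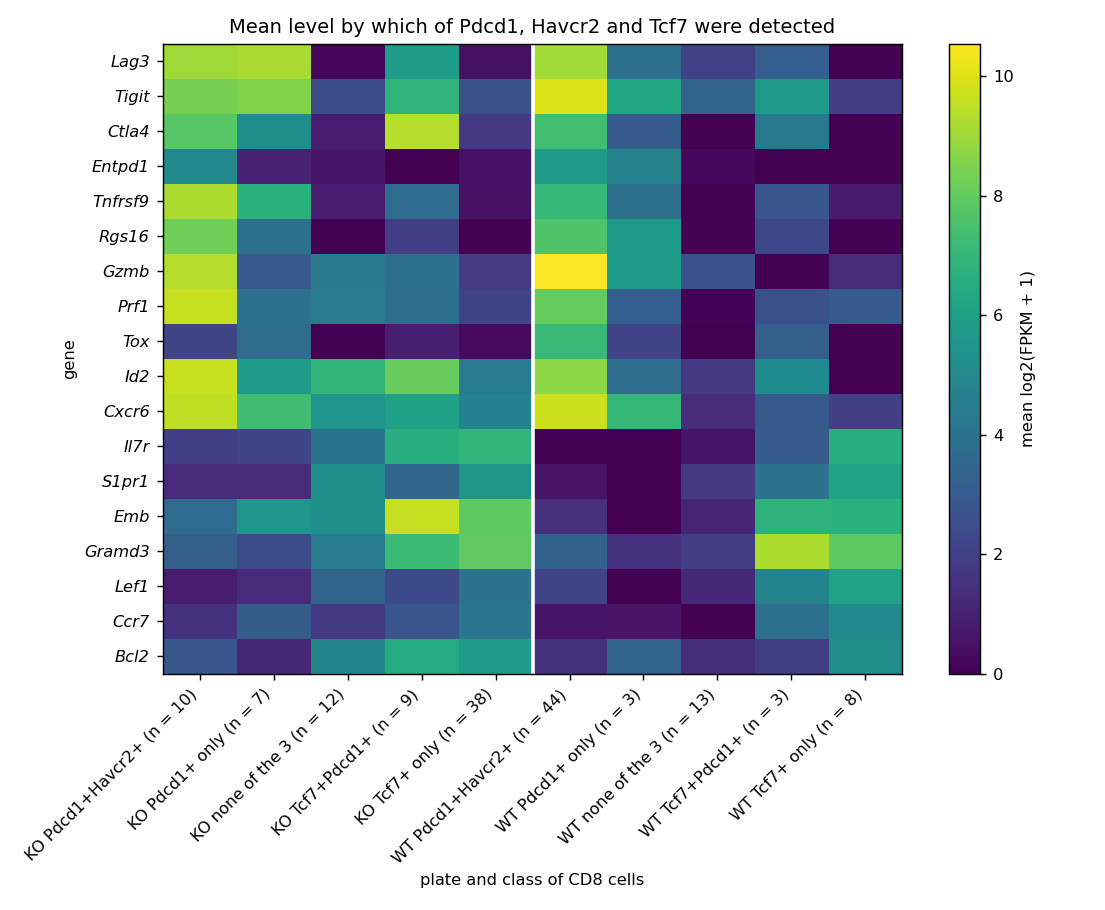
Mean log2(FPKM + 1) (colour) of 18 genes (rows) in CD8 cells grouped by which of Pdcd1, Havcr2 and Tcf7 were detected (columns, with the number of cells), KO-labelled plate on the left and WT plate on the right of the white line. Ctla4 is at 7.82 in KO-labelled Pdcd1+Havcr2+ cells and at 9.37 in Tcf7+Pdcd1+ cells, and at 7.36 and 4.25 in the same classes of the WT plate, while Entpd1 is at 0.00 in both Tcf7+Pdcd1+ classes.

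Within the Pdcd1+Havcr2+ set the cycling cells kept the receptors. On the WT plate Lag3 was detected in 31 of 31 cycling and 12 of 13 other cells, at a mean log2(FPKM + 1) of 8.9996 and 9.27, and Tox in 29 of 31 and 10 of 13. Rgs16 was the most unequal of 15 genes followed on the WT plate, with 8.70 in cycling and 5.16 in other cells. It was detected in 29 of 31 and 7 of 13. The cycling cells had a median of 4580 genes and the others 2990, so depth moved with this difference and its part was not tested. On the KO-labelled plate Rgs16 had 8.77 in 4 cycling and 7.92 in 6 other cells, less unequal than Gzmb at 11.6 and 7.88.

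The same rule applied to the CD4 plates gave 10 Pdcd1+Havcr2+ and 16 Tcf7+ KO-labelled cells and 5 and 32 WT cells. There 27.9% of 4796 genes were called higher and 1.40% lower, and the median gene was at 0.38 and 1.84. Genes detected had a median of 2550.5 against 2156 on the KO-labelled CD4 plate and 3332 against 1880 on the WT CD4 plate. Of the genes of CD4 and regulatory T cells, the 3 that passed the detection limit in CD8 cells had a median difference of 5.57 and 6.63. What part depth or regulatory T cells have in the CD4 differences was not tested. Of the 15 genes highest in CD8 cells, 12 were higher in both CD4 plates, where 57.1% of the 4796 genes were. The 4796 passed the detection limit there, and 11 of the 15 did. Tnfrsf9 differed by 8.16 and 5.71 in CD8 cells and by 10.3 and 10.2 in CD4 cells, and Lag3 by 7.53 and 8.22 in CD8 cells and by 6.77 and 8.17 in CD4 cells. The exceptions were Bhlhe40 at -1.29 and 3.11, Cks1b at -0.61 and 3.55, and Ccl3 at 1.05 and 0.00, the last with every WT CD4 cell of both sets listed at 0.

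Of the 15 genes lowest in CD8 cells, 11 were lower in both CD4 plates, where 7.30% of the 4796 genes were. The 15 were counted whether or not they passed the detection limit there, and 14 did. S1pr1 differed by -4.49 and -5.66 and Emb by -4.15 and -3.42. Of the 15, 2 had the opposite sign on both CD4 plates. Itgb7 was 1 of them, at -3.07 and -5.06 in CD8 cells and at 0.21 and 2.68 in CD4 cells. Tgtp2, an interferon-induced GTPase, and Pydc3, a pyrin domain protein, had opposite signs in the 2 CD4 plates. Whether the CD4 and CD8 differences differ was not tested, with 1 plate of each genotype and lineage.

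Promoters of the 15 highest and 15 lowest genes were searched for 3 short motifs in RefSeq windows of GRCm38.p6, 300 bases long around the start that RefSeq annotates; 11 and 10 genes had an entry. The motifs were TGANTCA for AP-1, CTTTGAN for TCF/LEF and TGGAAAN for NFAT, on both strands and with no overlap between motifs required or removed. TGANTCA was in 2 of 11 (18.2%) windows of the higher genes and 0 of 10 of the lower genes, against 7.81% of 32851 windows. CTTTGAN was in 3 of 11 (27.3%) and 2 of 10 (20%), against 15.96%, and TGGAAAN in 5 of 11 (45.5%) and 2 of 10 (20%), against 21.4%. These are counts of letters in a window and name no bound site. The windows of the first 2 genes with an entry on the higher side and of the first 2 on the lower side are shown so that their letters can be compared, with matches in capitals: Gzmb, chr14:56262285-56262584, minus strand, has 1 TGANTCA match; Rgs16, chr1:153740103-153740402, plus strand, has none; Il7r, chr15:9529827-9530126, minus strand, has none; and Emb, chr13:117220323-117220622, plus strand, has 1 CTTTGAN match read on the other strand and 1 TGGAAAN match. The gene positions given above are from GENCODE, whose start lies inside the window for Rgs16 and outside it for Gzmb, Il7r and Emb, so these 3 windows are not at the GENCODE start.
Gzmb: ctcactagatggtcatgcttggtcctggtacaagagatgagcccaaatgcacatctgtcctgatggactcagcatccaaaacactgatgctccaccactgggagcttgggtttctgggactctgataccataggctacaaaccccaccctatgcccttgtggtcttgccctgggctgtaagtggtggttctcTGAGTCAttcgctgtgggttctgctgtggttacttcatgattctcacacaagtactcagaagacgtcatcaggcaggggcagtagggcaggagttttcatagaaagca
Rgs16: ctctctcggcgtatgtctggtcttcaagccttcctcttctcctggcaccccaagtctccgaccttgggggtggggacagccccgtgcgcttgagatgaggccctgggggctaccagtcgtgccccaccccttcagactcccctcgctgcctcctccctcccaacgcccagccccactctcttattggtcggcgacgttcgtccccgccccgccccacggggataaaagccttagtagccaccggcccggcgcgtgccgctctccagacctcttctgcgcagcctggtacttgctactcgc
Il7r: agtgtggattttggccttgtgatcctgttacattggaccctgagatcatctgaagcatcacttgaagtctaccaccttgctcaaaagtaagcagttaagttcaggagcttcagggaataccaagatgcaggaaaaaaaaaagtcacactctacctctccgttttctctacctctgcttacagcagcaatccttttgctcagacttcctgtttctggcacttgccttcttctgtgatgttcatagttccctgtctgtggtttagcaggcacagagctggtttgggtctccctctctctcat
Emb: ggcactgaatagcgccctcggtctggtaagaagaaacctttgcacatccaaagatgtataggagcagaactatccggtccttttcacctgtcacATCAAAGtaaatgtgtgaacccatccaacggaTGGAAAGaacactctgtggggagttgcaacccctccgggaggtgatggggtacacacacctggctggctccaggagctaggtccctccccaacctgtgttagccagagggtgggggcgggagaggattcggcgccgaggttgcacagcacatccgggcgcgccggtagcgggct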

How the data were processed

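Single CD8 and CD4 T cells from B16F10 tumours were profiled by Smart-seq2 on 4 plates. The deposited values are FPKM with TMM scaling of the libraries by the authors, per the labels; the submitters' processing notes name RSEM, Bowtie and mm10, without versions of the tools. Smart-seq2 counts no molecular identifiers, and read depth per cell is not in the FPKM table, so genes above 1 FPKM stand for depth. Cells needed 1000 genes above 1 FPKM, which left 304 of 376 cells of 380 libraries.

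Groups came from the titles. Differences of mean log2(FPKM + 1), a pseudocount of 1, were computed with Python 3.11.15, numpy 2.4.6 and pandas 2.3.3. They were taken per plate and with no test, because cells of a plate are not replicates. The method was tested on simulated data, with known fold changes put into shuffled sets of the same cells. Shuffling removes the difference in genes detected between the sets, so this check does not cover it. The pseudocount of 1 understates changes of low genes. Genes needed detection in 25% of cells of either set on each plate. Matching was one to one on genes detected, within 20%. Shares carry exact Clopper-Pearson 95% intervals, and a share of 0 the limit that 3 cells set; both cover counting error only. Named genes were the 15 highest and 15 lowest by the smaller of the 2 plate differences and up to 4 of each of 19 lists, with Tox and Il27ra added; some genes this rule names are not reported here. The members, lists and this rule were chosen with earlier results of these data known. Gene positions are from GENCODE M21 (GRCm38). No doublet caller was run on these plates of single cells.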

Additional observations from a re-analysis of the deposited data

Results flagged for a closer look

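Among the members of the 19 lists, 9 genes were past 1 in opposite directions on the 2 CD8 plates. Over all genes 1.81% of 5693 were. Some genes are in more than 1 list, so the 9 are not given as a share. They are not read as more frequent than among all genes. Values are Pdcd1+Havcr2+ minus Tcf7+ cells, KO-labelled plate first, and whether the plates differ was not tested.

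Higher on the WT plate and lower on the KO-labelled plate were Ccl5, a chemokine of memory and effector cells, at -1.22 and 2.26, and Dusp1, a phosphatase of MAP kinases, at -1.39 and 2.84. So were 2 interferon-induced genes, Ifi27l2a at -1.18 and 4.02 and Ifi47 at -1.60 and 1.77. Itgb1, the integrin beta 1 chain, stood at -1.54 and 1.99, and Tnfrsf18, the costimulatory receptor GITR, at -1.17 and 2.68.

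The other direction held for Ptpn6, the phosphatase SHP-1, at 3.99 and -2.36, for Klre1, a killer lectin receptor, at 2.28 and -2.19, and for Il12rb2, an interleukin-12 receptor chain, at 1.02 and -1.14. Each rests on 10 or 11 cells on one side of each plate.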

How the results depend on the processing

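Over all cells 38.3% of genes tested were called higher, 1.56% lower, and 12 lists lay past 1. The median gene was past 1 as well, at 1.08 and 1.20. Less that median, the costimulatory, cytotoxic, T cell receptor signalling and survival lists were not past 1 on both plates. The ribosomal list then was, at -1.31 and -1.63. With a pseudocount of 0.1, 51.5% of genes tested were higher and 2.49% lower, and with 10, 16.7% were higher and 0.808% lower. Without the gene detection limit 19.9% of 11594 genes were higher and 0.897% lower. Matched cells gave 12.1% higher, 5.85% lower and 6 lists, genes detected as a covariate 6.34%, 6.22% and 4, and leaving out cycling cells 17.3%, 3.86% and 7. The log2 of mean FPKM gave 16.7%, 3.02% and 7, centring on the median gene 11.7% and 11.05%, and Tcf7+ cells with Pdcd1 only 23.7%, 3.33% and 7. Matching with centring, chosen after seeing the data, gave 9.77% and 8.67%. Of all calls 96.1% were higher over all cells, 67.4% in matched cells, 50.5% with the covariate and 51.5% when centred. Leaving out 1 cell at a time, added later, gave 34.9% to 41.999% higher, 1.51% to 1.79% lower and 11 to 12 lists.

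Of the 83 named genes called over all cells, 58 were called in matched cells, 60 with Tcf7+ cells limited to those with Pdcd1, 70 from the log2 of mean FPKM, 71 with the covariate, 73 without cycling cells, 79 with a pseudocount of 10 and 79 when centred. Of them 2 changed sign in the mean of both plates, and the cause was not tested: Irf7 to 0.13 without cycling cells and Tnfrsf1b to -0.10 with Tcf7+ cells limited to those with Pdcd1. No paired analysis was possible because the numbers in the titles name single libraries and the result comes from no test; each difference was taken within a plate, and matched cells form 9 pairs per plate. Each plate is 1 sample, the smaller sets hold 10 and 11 cells, and genes per cell differ between the sets.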

Other observations

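The 40 kept CD8 cells outside both sets were not alike. On the KO-labelled plate 7 cells had Pdcd1 without Havcr2 or Tcf7. Of these, 6 had Lag3, all 7 had Tigit, 4 had Ctla4 and 1 had Entpd1, the CD39 gene. Xcl1, a chemokine that attracts dendritic cells, was detected in 6 of the 7, at a mean log2(FPKM + 1) of 7.80 ± 3.93 (SD over cells), against 3 of 10 Pdcd1+Havcr2+ cells, at 3.03 ± 5.11. Il7r was detected in 2 of the 7. On the WT plate 3 cells had Pdcd1 only, of which 1 had Lag3 and 2 had Entpd1.

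Cells with none of the 3 selecting genes differed between the plates in Ccl5, found in 10 of 12 cells of the KO-labelled plate and 5 of 13 of the WT plate, a difference that was not tested. S1pr1 was found in 7 of the 12 and 3 of the 13 in the same order and Prf1 in 6 of 12 and 1 of 13. All cells outside both sets had a median of 2343 genes on the KO-labelled plate and 1456 on the WT plate, and what part this depth has in these shares was not tested.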
